A study of Danio rerio with 2 samples.

Results

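Hair cells are the mechanosensory cells of the ear and, in fish, of the lateral line on the body surface. Deflection of the hair bundle pulls on tip links and opens transduction channels, calcium enters, and glutamate is released at ribbon synapses. In the fish ear the bundles lie under otoliths, stones of calcium carbonate that crystallise on a secreted protein matrix. The 10 genes described here each stand for a step of this system. The secreted matrix genes are stm and otomp, and the calcium-binding protein genes are s100s, s100t and pvalb8. The genes tmie and pcdh15a belong to the transduction apparatus, myo6b encodes a motor of the hair bundle, slc17a8 a vesicular glutamate transporter and atoh1a the transcription factor that starts hair cell fate. They were taken by symbol from a list of hair cell and otolith genes, and each matched 1 row of the 33733 gene rows in the deposited table.

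The study compared homozygous lri35 mutant zebrafish larvae with wild-type larvae of the same clutch. Both groups were of an AB/TL background and 5 days post fertilization. RNA came from the whole bodies of 20 pooled larvae per genotype, and each genotype has 1 library. The sample labels write the allele as lir35 and do not name the gene it affects. There is no replicate error, no test across samples was possible, and pool, library and genotype cannot be told apart. The ear and the lateral line are a small part of a whole larva, so fewer cells of a type and less RNA per cell cannot be told apart either.

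Values are FPKM, fragments scaled to gene length and to mapped fragments. That unit was inferred from the layout of the table. Folds are plain ratios of FPKM. Differences are log2((mutant FPKM + 1)/(wild-type FPKM + 1)), and a gene was counted as past 2-fold on that scale, which understates the change of low genes. The mutant library was about 1.24 times deeper, judged from the smallest steps in low values, and absolute depth is unknown.

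The sum of the 10 genes lay at about the same level in both libraries. Their summed FPKM was 237 in the mutant library and 234 in the wild-type library, a ratio of 1.01. The abundant genes set that sum. The genes tmie, pcdh15a, myo6b and slc17a8 summed to 10.9 FPKM in the mutant library and 14.2 FPKM in the wild-type library, a ratio of 0.77. Of the 10 genes, 6 had a difference above 0 and 4 below 0. Their median was 0.10, beside a median of -0.01 over the 19112 genes that averaged 1 FPKM or more. A single gene, atoh1a, was past 2-fold, and it was higher in the mutant library. Over all 19112 genes, 5.99% were past 2-fold in either direction, 2.87% toward the mutant library and 3.12% toward wild type. By sign alone, 9393 of the 19112 were above 0 and 9719 below 0. All 10 genes had a mean of at least 1 FPKM, but atoh1a passed only through its mutant value and slc17a8 only through its wild-type value.

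**Figure D1:**
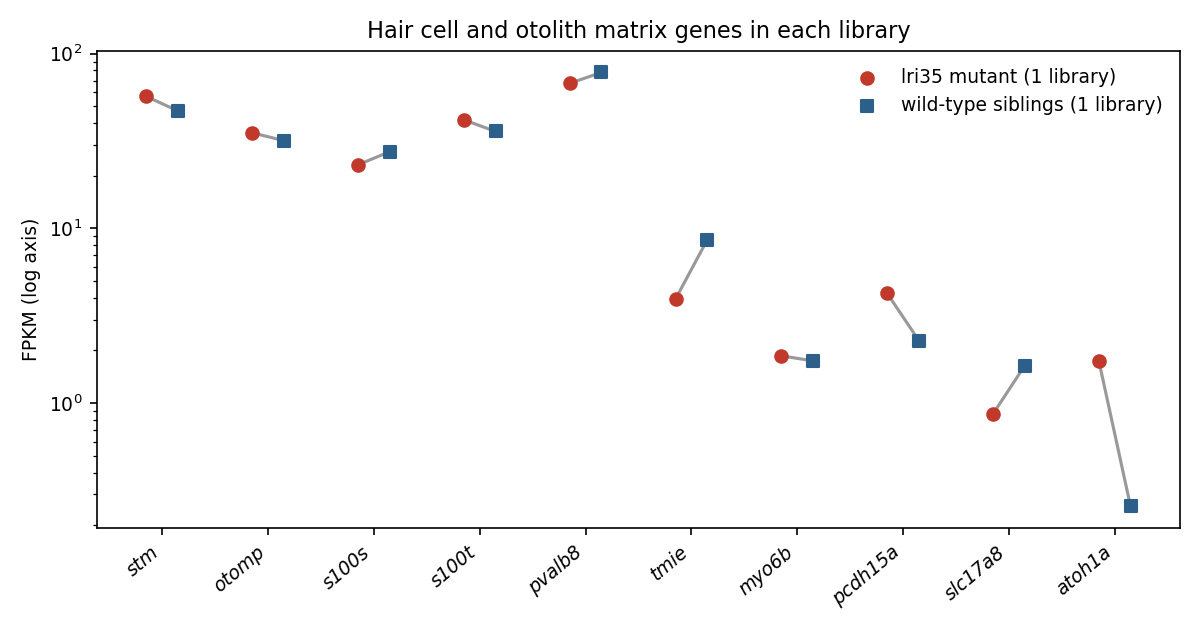
FPKM of each of the 10 genes on a log axis, with the mutant library as circles and the wild-type library as squares, 1 library each. The 5 genes at the left lie between 23.1 and 77.9 FPKM with nearly level lines, while the steep lines belong to tmie, pcdh15a, slc17a8 and atoh1a.

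The genes fall into an abundant and a scarce group. Of the 10 genes, 5 had a mean of at least 20 FPKM and the other 5 had a mean under 20 FPKM. The abundant genes stood in the same order in both libraries, with pvalb8 first, then stm, s100t, otomp and s100s. The scarce genes changed places: pcdh15a was above tmie in the mutant library and below it in the wild-type library, and atoh1a was above slc17a8 in the mutant library and below it in the wild-type library. Among all genes, the spread between the libraries also widened as the level fell. The median absolute log2 difference was 0.16 over the 4007 genes at 20 FPKM and above, 0.23 over the 7550 genes from 5 to 20 FPKM, and 0.33 over the 7555 genes from 1 to 5 FPKM. The share past 2-fold was 2.1%, 3.56% and 10.5% in the same order. These ranges of level were chosen after the data were seen.

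**Figure D2:**
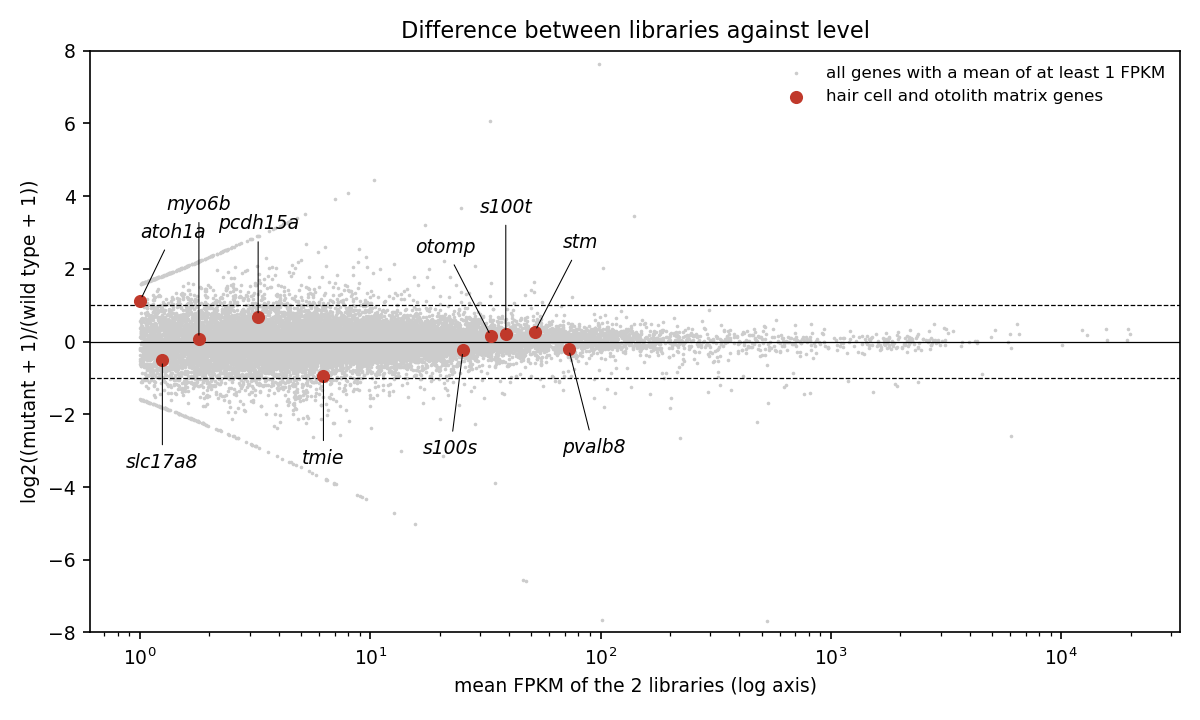
Log2 difference between the mutant and the wild-type library against the mean FPKM of both, on a log axis, for all genes that averaged 1 FPKM or more (grey) and the 10 genes (red, named); dashed lines mark 2-fold. The 5 abundant genes and myo6b lie close to 0, the other scarce genes lie farther out, and the cloud of grey points is wider at low levels.

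Both otolith matrix genes were slightly higher in the mutant library. The gene stm encodes Starmaker, an acidic secreted protein that sets the crystal form of the otolith in zebrafish. It stood at 56.8 FPKM in the mutant library and 46.9 FPKM in the wild-type library, a 1.21-fold higher level with a log2 difference of 0.27. The gene otomp encodes otolith matrix protein, another secreted component of the stone. It stood at 35.2 FPKM in the mutant library and 31.7 FPKM in the wild-type library, 1.11-fold higher, with a log2 difference of 0.15. The ratio of stm to otomp was 1.61 in the mutant library and 1.48 in the wild-type library. Of the genes at 20 FPKM and above, 28.2% differed between the libraries by at least as much as stm. On Zv9, otomp lies alone at chr2:41589198-41603527, while stm shares the region chr19:3697799-3795238 with zgc:86598 and si:ch211-133n4.6. These neighbours stood at 43.9 and 30.7 FPKM in the mutant library, against 42.3 and 36.7 FPKM in the wild-type library.

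A wider list of otolith and tectorial matrix genes held 15 genes, among them stm and otomp, and 14 were found. Of these, 9 had a mean of at least 1 FPKM, stm and otomp included, and 6 were above 0. Their median of 0.15 is the value of otomp. None was past 2-fold, beside 5.99% over all genes. By far the most abundant was sparc, a collagen-binding matrix glycoprotein that many connective tissues also make, at 887 FPKM in the mutant library and 852 FPKM in the wild-type library. The chaperone gene hsp90b1, which folds secreted proteins in the endoplasmic reticulum, stood at 31.8 FPKM in the mutant library and 27.5 FPKM in the wild-type library. The carbonic anhydrase gene cahz, also known from red blood cells, had the lowest log2 difference of the list, at -0.62. It stood at 32.8 FPKM in the mutant library and 50.8 FPKM in the wild-type library, 1.55-fold lower, with a p of 0.0391 and a q of 0.994 in the authors' deposited table. The tectorin gene tectb, named after its values were seen, stood at 5.53 FPKM in the mutant library and 3.24 FPKM in the wild-type library.

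The 3 calcium-binding protein genes differed by less than 1.2-fold in either direction. The parvalbumin pvalb8, a soluble buffer of calcium, was the most abundant of the 10 genes. It stood at 67.5 FPKM in the mutant library and 77.9 FPKM in the wild-type library, 1.15-fold lower, with a log2 difference of -0.20. The genes s100s and s100t encode small EF-hand proteins of the S100 family. The first stood at 23.1 FPKM in the mutant library and 27.4 FPKM in the wild-type library, 1.19-fold lower, with a log2 difference of -0.24. In the other direction, s100t stood at 41.8 FPKM in the mutant library and 35.8 FPKM in the wild-type library, 1.17-fold higher, with a log2 difference of 0.22. The ratio of s100t to s100s was thus 1.81 in the mutant library and 1.30 in the wild-type library. Each of the 3 genes lies alone in its region, at chr3:61763105-61771637 for pvalb8, chr19:8218459-8231822 for s100s and chr16:24862111-24863680 for s100t.

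Their relatives give a measure of how evenly such genes behaved between the libraries. The other 8 parvalbumin genes had a median log2 difference of 0.07 and a range from -0.29 for pvalb7 to 0.36 for pvalb9. None was past 2-fold, beside 5.99% over all genes. The parvalbumins pvalb1 and pvalb2, which are muscle calcium buffers, stood at 16025 and 19684 FPKM in the mutant library, against 15458 and 19054 FPKM in the wild-type library. Thus pvalb1, which lies on the same chromosome as pvalb8, was 237 times as abundant as pvalb8 in the mutant library and 198 times in the wild-type library. The sources used here do not say how the authors assigned fragments shared between parvalbumin copies, and the value of pvalb8 is uncertain to that extent. The gene pvalb9 stood at 119 FPKM in the mutant library and 92.6 FPKM in the wild-type library, 1.28-fold higher.

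The other 9 S100 genes had a median log2 difference of 0.02. A single one was past 2-fold, s100a1, at 0.8002 FPKM in the mutant library and 7.30 FPKM in the wild-type library, 9.12-fold lower. In the authors' deposited table this difference has a p of 0.247. The gene s100z stood at 1.93 FPKM in the mutant library and 4.36 FPKM in the wild-type library. At the other end, s100a11 stood at 143 FPKM in the mutant library and 90.1 FPKM in the wild-type library, 1.59-fold higher. It shares its region with s100u, and that region ends 4.86 kb before s100s begins.

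**Figure D3:**
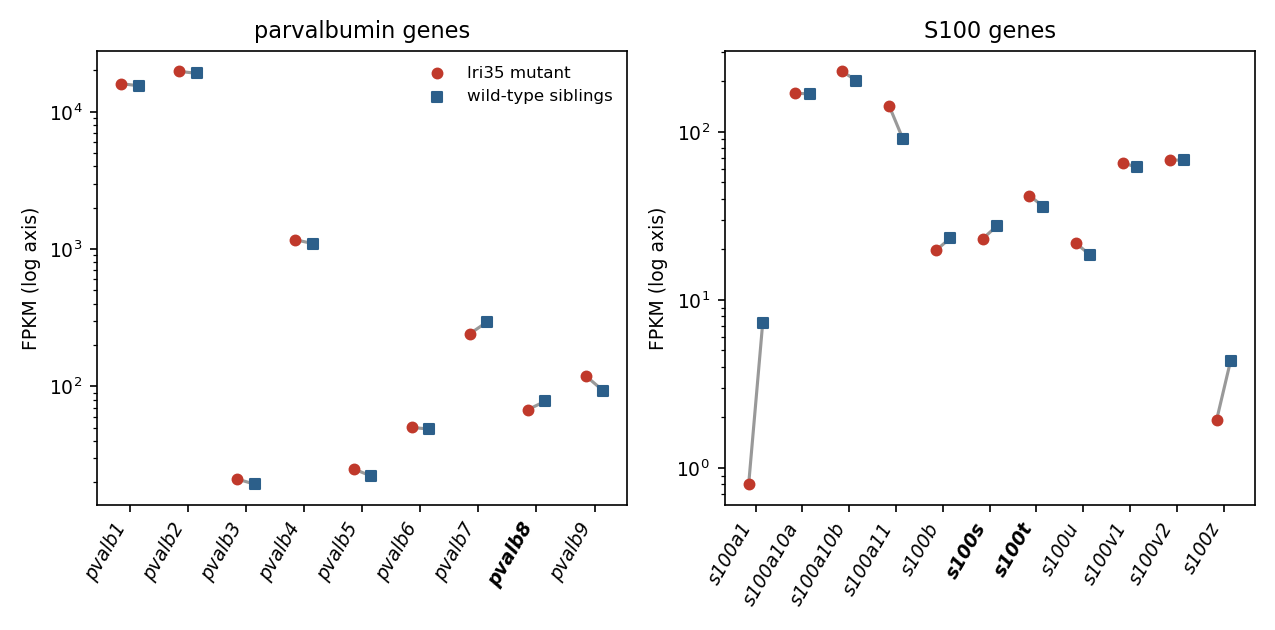
FPKM on a log axis of every parvalbumin gene (left) and every S100 gene (right), with the mutant library as circles and the wild-type library as squares; the genes pvalb8, s100s and s100t are in bold. Lines are nearly level for all parvalbumins, and s100a1 and s100z have the steepest lines among the S100 genes.

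A wider list of calcium-binding and calcium pump genes had 10 genes that averaged 1 FPKM or more, among them pvalb8, s100s and s100t. None was past 2-fold, beside 5.99% over all genes, and the median was -0.05. The calretinins calb2a and calb2b, calcium buffers that many neurons also contain, were as abundant as pvalb8. They stood at 79.1 and 73.6 FPKM in the mutant library, against 67.9 and 72.2 FPKM in the wild-type library. The plasma membrane calcium pump genes atp2b1a and atp2b2, named after their values were seen, stood at 10.8 and 11.6 FPKM in the mutant library and at 14.0 and 11.7 FPKM in the wild-type library.

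The 2 transduction genes differed in opposite directions. The gene tmie encodes a small membrane protein that is required for the transduction channel complex. It stood at 3.94 FPKM in the mutant library and 8.59 FPKM in the wild-type library, 2.18-fold lower in plain FPKM, with a log2 difference of -0.96 on the scale with 1 FPKM added, just short of 2-fold. With a pseudocount of 0.1 FPKM the difference was -1.11 and past 2-fold. Of the 7550 genes from 5 to 20 FPKM, 3.95% differed by at least as much as tmie. The mean of tmie, 6.26 FPKM, lies near the lower edge of that range, and from 1 to 5 FPKM the share was 11.6%. The authors' deposited table gives tmie a p of 0.127 and a q of 0.994, and that p is the lowest among the 7 of the 10 genes it tested. The gene lies alone at chr2:2025944-2081419.

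The gene pcdh15a encodes protocadherin 15a, which forms the lower end of the tip link. It stood at 4.24 FPKM in the mutant library and 2.28 FPKM in the wild-type library, 1.86-fold higher, with a log2 difference of 0.68. Of the 7555 genes from 1 to 5 FPKM, 21.8% differed by at least as much. The ratio of tmie to pcdh15a was 0.928 in the mutant library and 3.77 in the wild-type library. That ratio combines the opposite differences of tmie and pcdh15a, each short of 2-fold on the scale with 1 FPKM added. How often other pairs of scarce genes shift as far was not tested. The region of pcdh15a, chr13:41782743-42199243, spans 416.5 kb and holds a 5S_rRNA row that is listed at 0 in both libraries.

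Other genes of the transduction complex were mostly too low to compare. Of 12 genes in the wider list, 8 were found and 3 had a mean of at least 1 FPKM, namely tmie, pcdh15a and cib2. Their median log2 difference was -0.65, with 2 below 0 and 1 above 0, and it is the value of cib2. The count leaves out the rows TMC2 (1 of 2) and TMC2 (2 of 2), found after the values were seen. Those rows had means of 0.325 and 1.10 FPKM. The second stood at 0.509 FPKM in the mutant library and 1.69 FPKM in the wild-type library. The calcium- and integrin-binding gene cib2, whose product binds the channel proteins, stood at 9.79 FPKM in the mutant library and 15.9 FPKM in the wild-type library, 1.62-fold lower. The channel gene tmc1, named after its values were seen, stood at 0.423 FPKM in the mutant library and 0.710 FPKM in the wild-type library. The gene lhfpl5a, another subunit gene named after its values were seen, was listed at 0 in the mutant library and at 1.94 FPKM in the wild-type library, with a mean under 1 FPKM. For cdh23, cadherin 23 of the upper tip link and likewise named afterwards, 2 rows summed to 0.279 FPKM in the mutant library and 0.379 FPKM in the wild-type library.

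The motor gene myo6b had the smallest difference of the 10 genes. Myosin VI is an unconventional myosin that anchors the hair bundle at its base. The gene stood at 1.86 FPKM in the mutant library and 1.74 FPKM in the wild-type library, 1.07-fold higher, with a log2 difference of 0.06. It lies alone at chr17:36854611-37009499. Its copy myo6a stood higher, at 10.98 FPKM in the mutant library and 12.3 FPKM in the wild-type library.

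Among 31 hair bundle genes, 25 were found and 16 of these, myo6b included, had a mean of at least 1 FPKM. None was past 2-fold, beside 5.99% over all genes. By sign, 11 were below 0 and 5 above 0, with a median of -0.17. The scaffold gene ush1c, of the Usher complex and also of gut microvilli, stood at 7.31 FPKM in the mutant library and 8.32 FPKM in the wild-type library. The actin-binding gene xirp2a, which muscle also expresses, stood at 11 FPKM in the mutant library and 15.1 FPKM in the wild-type library.

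The synaptic gene slc17a8 was lower in the mutant library. Its product, the vesicular glutamate transporter Vglut3, fills the synaptic vesicles of zebrafish hair cells. The gene stood at 0.866 FPKM in the mutant library and 1.64 FPKM in the wild-type library, 1.89-fold lower, with a log2 difference of -0.50. Of the 7555 genes from 1 to 5 FPKM, 33.1% differed by at least as much. The authors' deposited table left slc17a8, myo6b and atoh1a untested. The gene lies alone at chr18:15295242-15314483.

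Of 23 ribbon synapse genes, 19 were found and 16 of these, slc17a8 included, had a mean of at least 1 FPKM. None was past 2-fold, beside 5.99% over all genes. By sign, 12 were below 0 and 4 above 0, with a median of -0.27. These counts leave out the 4 listed genes that matched no row, bsna and bsnb among them. Rows under the human name BSN were thus not counted: BSN (1 of 3), BSN (2 of 3) and BSN (3 of 3), named after their values were seen. The BSN rows had means of 3.42, 3.17 and 2.32 FPKM and log2 differences of -0.42, -0.35 and -0.82. The row OTOF (1 of 2), also named afterwards and not counted, stood at 1.65 FPKM in the mutant library and 3.39 FPKM in the wild-type library. Neurons and photoreceptors also express many of the listed genes. The ribbon protein gene ctbp2a stood at 27.7 FPKM in the mutant library and 23.7 FPKM in the wild-type library. The release-site scaffold gene rims2a stood at 15.9 FPKM in the mutant library and 19.9 FPKM in the wild-type library, and the potassium channel gene kcnma1a at 15.3 FPKM in the mutant library and 19.2 FPKM in the wild-type library. The neuronal glutamate transporter genes slc17a6a, slc17a6b and slc17a7, counted as another list, stood at 9.24, 17.9 and 10.5 FPKM in the mutant library, against 9.01, 19.2 and 11.6 FPKM in the wild-type library.

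With a pseudocount of 1 FPKM, the largest difference among the 10 genes was that of atoh1a, a basic helix-loop-helix transcription factor gene needed for hair cells to form and also active in the progenitors of the cerebellum. It stood at 1.75 FPKM in the mutant library and 0.256 FPKM in the wild-type library, 6.82-fold higher, with a log2 difference of 1.13. Its mean of 1.003 FPKM lies at the edge of the filter. When the mutant values were rescaled to the median ratio of all genes, the mean dropped below 1 FPKM and atoh1a left the comparison. With a pseudocount of 5 FPKM the log2 difference was 0.36, short of 2-fold. Under each of these alternatives, and with a minimum mean of 5 FPKM, the largest difference was that of tmie, at -0.96, -0.60 and -0.96 in the same order. Among genes from 1 to 5 FPKM, as above, 10.5% were past 2-fold in either direction. The region that the table gives for atoh1a spans 735 kb and is shared with other rows. The sources used here do not say how fragments were assigned within it, so the value of atoh1a is uncertain to that extent.

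None of the other transcription factor genes of hair cells that averaged 1 FPKM or more was past 2-fold, beside 5.99% over all genes. Of 15 genes in that list, 14 were found and 13 of these had a mean of at least 1 FPKM. Of the 13, 10 were above 0 and 3 below 0, with a median of 0.09, and atoh1a alone was past 2-fold. The second atoh1 copy of hair cells, atoh1b, stood at 3.67 FPKM in the mutant library and 3.13 FPKM in the wild-type library. The survival factor gene pou4f3 stood at 3.23 FPKM in the mutant library and 1.995 FPKM in the wild-type library, and gfi1aa at 1.64 FPKM in the mutant library and 1.502 FPKM in the wild-type library. All 3 were named once their values were known. The gene emx2, which sets the orientation of hair bundles, stood at 14.97 FPKM in the mutant library and 13.2 FPKM in the wild-type library. The most abundant genes of the list, sox4a and insm1a, stood at 62.3 and 15.1 FPKM in the mutant library, against 59.6 and 15.6 FPKM in the wild-type library. The 3 genes below 0 were insm1a at -0.04 and, named after their values were seen, six1b at -0.15 and eya1 at -0.19. This list too was measured in whole larvae, and what cells other than hair cells added to its values cannot be told apart.

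A list of cerebellar and hindbrain genes went both ways; it holds genes of the atoh1 progenitors and, as ptf1a and olig2, of the neighbouring progenitors that do not use atoh1. Of its 8 genes, 3 were above 0 and 5 below 0, with a median of -0.10, and the third atoh1 copy atoh1c, named after its values were seen, stood at 0.840 FPKM in the mutant library and 1.68 FPKM in the wild-type library. The neuronal gene neurod stood at 47.5 FPKM in the mutant library and 50.5 FPKM in the wild-type library. The genes zic1 and pax6a stood at 22.3 and 25.4 FPKM in the mutant library, against 24.3 and 21.3 FPKM in the wild-type library. The 1 gene of that list past 2-fold was ptf1a, also a gene of the pancreas. It stood at 4.01 FPKM in the mutant library and was listed at 0 in the wild-type library. The authors' deposited table gives ptf1a a p of 0.00085 and a q of 0.344, and did not call it at q under 0.05. The summed level of the list was 118 FPKM in the mutant library and 120 FPKM in the wild-type library, and its part in the value of atoh1a was not tested.

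Supporting cells surround hair cells, and new hair cells arise from them in fish. Their list, which also holds genes of the lateral line epithelium, was measured in whole larvae. It had a median of 0.16 over 19 genes, 11 above 0 and 8 below 0. The 1 gene past 2-fold was sox21a, a SoxB transcription factor gene, at 4.27 FPKM in the mutant library and 1.24 FPKM in the wild-type library, 3.44-fold higher. The authors' deposited table gives it a p of 0.121. The tight junction genes cldnb and cldne, which the skin also expresses, stood at 267 and 145 FPKM in the mutant library, against 228 and 118 FPKM in the wild-type library. The chemokine scavenger gene ackr3b stood at 39.3 FPKM in the mutant library and 30.3 FPKM in the wild-type library. Without the 10 genes, the lists of ear, hair cell and supporting cell genes held 76 with a mean of at least 1 FPKM. Of these, 1 was at least 2-fold higher and 0 were at least 2-fold lower, with a median of -0.05. Over all 19112 genes, the shares were 2.87% higher and 3.12% lower.

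**Figure D4:**
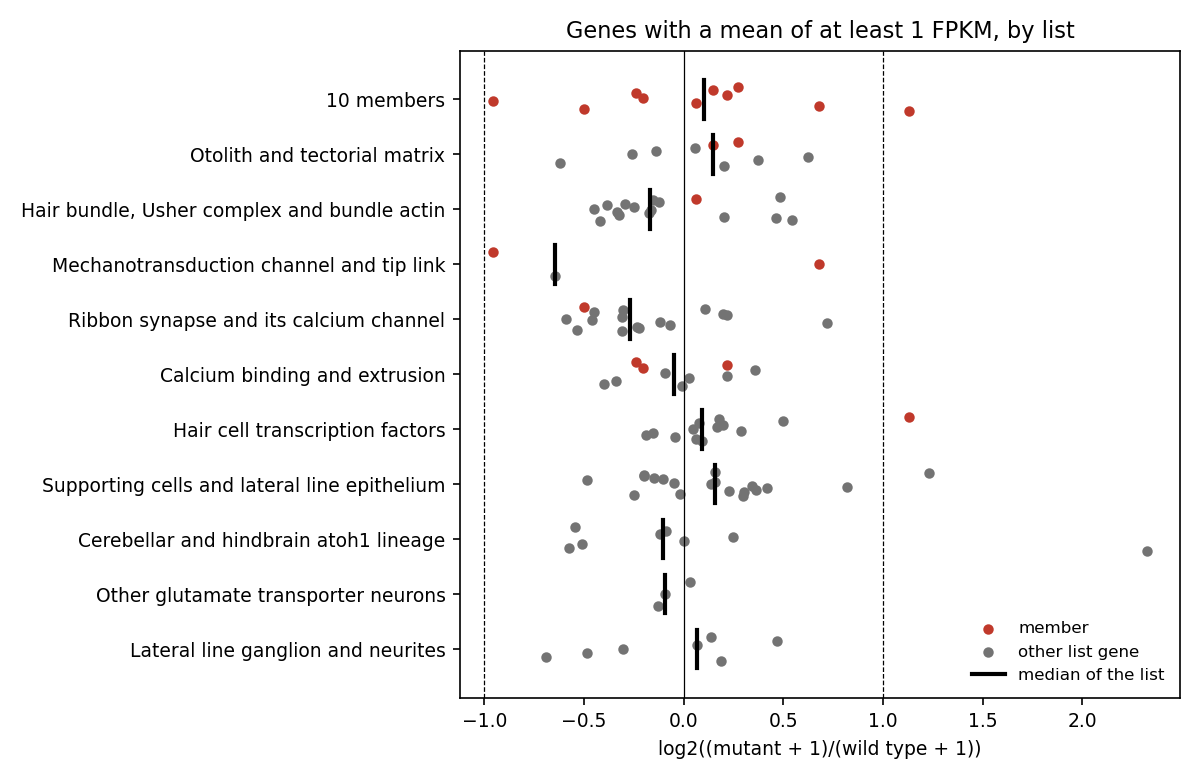
Log2 difference between the mutant and the wild-type library for each gene that averaged 1 FPKM or more, by list, with the 10 genes in red, other genes in grey and the list median as a black bar; dashed lines mark 2-fold. Beyond the dashed lines lie atoh1a, sox21a and ptf1a, all on the side of the mutant library.

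The authors' deposited table called none of the 10 genes. It tested 7 of them, with p from 0.127 for tmie to 0.624 for otomp in the authors' deposited table. Of the 14574 rows it tested, the authors' deposited table called 18 at q under 0.05, or 0.124%, and 428 rows, or 2.94%, had a p under 0.05. These p-values compare 2 libraries and carry no replicate error.

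The size of a difference depended on the scale for tmie, pcdh15a, slc17a8 and atoh1a, and hardly for the abundant genes and myo6b. Under other pseudocounts and scalings stm ranged from 0.25 to 0.31, pvalb8 from -0.21 to -0.17 and myo6b from 0.026 to 0.092 on the log2 scale. Over the same settings tmie ranged from -1.11 to -0.60, pcdh15a from 0.34 to 0.87, slc17a8 from -0.85 to -0.18 and atoh1a from 0.36 to 2.37. The signs could not change under these settings. A pseudocount added to both values keeps the sign of a difference. Scaling to the median ratio multiplied the mutant values by 0.9955. Scaling to totals without the 50 most abundant genes moved the median log2 difference over all genes from -0.008 to 0.021. Both shifts were too small to turn any of the 10 differences.

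**Figure D5:**
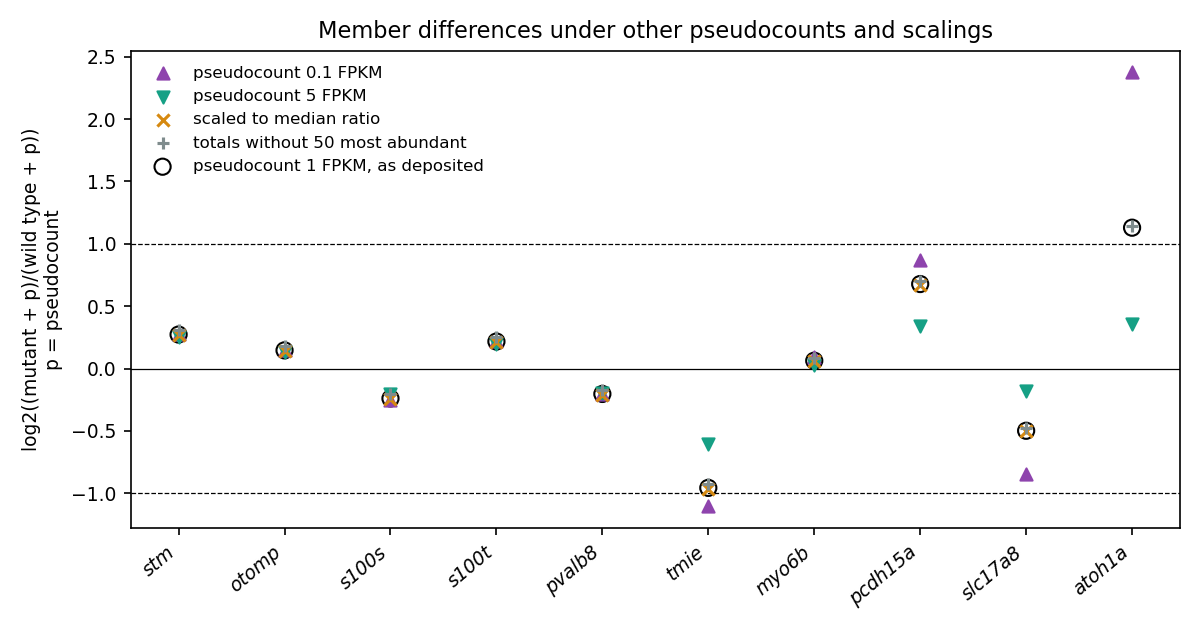
Log2 difference between the mutant and the wild-type library for each of the 10 genes, with the pseudocount of 1 FPKM as open circles and the other pseudocounts and scalings as coloured marks; dashed lines mark 2-fold. The marks of the 5 abundant genes and of myo6b overlap, and those of atoh1a lie farthest apart.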

How the data were processed

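RNA of whole larvae was sequenced in 2 libraries, 1 per genotype. Per the submitters' processing notes, CASAVA and Bowtie were used with genome build Zv9. The quantifier, annotation and strand setting are not known from the labels or headers. The authors deposited 1 table with an FPKM value per library and gene, read as FPKM from its Cuffdiff-like layout. The deposited p-values and q-values are the authors' own and were copied. Library names in the table end in WT or MT and were matched to the samples on that basis.

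Rows sharing a symbol were summed, with Python 3.11.15 and pandas 2.3.3, and symbols averaging 1 FPKM or more were compared with a pseudocount of 1 FPKM. Relative depth came from 350 rows with a mean of at most 0.3 FPKM. Of these, 41.4% lay within 0.1 log2 of the most frequent ratio, and the depth is their median. FPKM gives no counting interval. The members and lists were chosen with earlier results of these data known. Of 147 genes in 10 wider lists, 116 matched by symbol, 3 by Ensembl ID, 5 by an older name and 4 by symbol in another case; 19 were not analysed here. Named genes are the members, their parvalbumin and S100 relatives and, per list, the 3 most abundant other genes and those past 2-fold; the rest are marked as named later. No sequence is shown, and 1 gene is not reported here.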

Additional observations from a re-analysis of the deposited data

How the results depend on the processing

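Each difference was recomputed with other pseudocounts, filters, scalings and row choices. Scaling to totals without the 50 most abundant genes left every 2-fold call of the 10 genes as given. Each of the 10 genes has 1 row, so taking the highest row per symbol could not change their values. Both settings left every count within 1.5 times and every median within 0.1. Matching by file symbol alone, a choice added later and run for the wider lists only, left their counts and medians within the same limits. With a pseudocount of 0.1 FPKM, atoh1a moved to 2.37 and tmie to -1.11, so that 1 of the 10 genes was at least 2-fold lower. That setting counted 927 genes higher and 1049 lower over all genes, 2 higher in the supporting cell list and 1 lower in the transduction list. With a pseudocount of 5 FPKM, atoh1a fell short of 2-fold at 0.36, and 0 of the 10 genes were past 2-fold higher. That setting counted 91 genes higher and 124 lower over all genes, and 0 higher in the transcription factor, supporting cell and cerebellar lists. The transduction median became -0.50 and the ribbon synapse median -0.16. Requiring a mean of 5 FPKM took pcdh15a, myo6b, slc17a8 and atoh1a out of the comparison. Of the members that remained, 0 were past 2-fold higher, with a median of -0.029. Over all genes, 156 were higher and 197 lower. That minimum left 0 higher in the same 3 lists and a ganglion median of -0.12. The transduction median became -0.80, from tmie and cib2 alone. With no minimum, 1 hair bundle gene was higher and 1 lower, 1 transduction gene was lower, the transduction median was -0.46 and the ganglion median -0.046. Scaling to the median ratio left 0 of the 10 genes and 0 transcription factor genes higher, because the mean of atoh1a dropped below 1 FPKM. No paired analysis was possible because each genotype has 1 library. Depth limits the scarce genes: a few fragments can set their values, and their errors are unknown.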

Other observations

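A list named for the lateral line ganglion, whose neurons carry the hair cell signal, and for neurites was measured in whole larvae. Its median log2 difference was 0.06 over 7 genes, 4 above 0 and 3 below 0. None was past 2-fold, beside 5.99% over all genes. What other neurons added to these values cannot be told apart. The cell adhesion gene alcama stood at 28.2 FPKM in the mutant library and 26.9 FPKM in the wild-type library. The neurofilament genes nefma and nefmb stood at 13.6 and 11.5 FPKM in the mutant library, against 17.1 and 16.4 FPKM in the wild-type library.

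The rows TMC2, BSN and OTOF (1 of 2) carry the names of human counterparts and were found after the values were seen. The channel gene rows TMC2 (1 of 2) and TMC2 (2 of 2) stood at 0.324 and 0.509 FPKM in the mutant library, against 0.326 and 1.69 FPKM in the wild-type library. The otoferlin gene otof was counted in the ribbon synapse list. Named after its values were seen, it stood at 3.85 FPKM in the mutant library and 3.50 FPKM in the wild-type library. The row OTOF (1 of 2), left out of that list, stood at 1.65 FPKM in the mutant library and 3.39 FPKM in the wild-type library. The phosphatase gene ptprq was found in the hair bundle list by its own symbol, with a mean below 1 FPKM. Also named afterwards, it stood at 1.51 FPKM in the mutant library and 0.212 FPKM in the wild-type library.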
